A study of Homo sapiens with 6 samples.

Results

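The 10 genes described here make prostaglandins from arachidonate, break them down or receive their signal, and they were read in 143B osteosarcoma cells by RNA-seq in 3 vector control (VC) and 3 CNTNAP4 knockout (KO) libraries. They are PLA2G4A, PTGS1, PTGS2, PTGES, PTGES2, PTGES3, PTGIS, HPGD, PTGER2 and PTGER4, taken by symbol from the 54308 genes listed. The set was chosen by earlier values of the same KO against VC contrast, above all the rise of PTGS2, so the differences of these 10 genes are a description and carry no test of their own. All 10 had a value in each of the 6 libraries, as did 17698 genes in all.

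143B is an established human osteosarcoma line. KO cells had received a CRISPR/Cas9 plasmid against CNTNAP4, which encodes a cell surface protein of the neurexin family. VC cells had received a control plasmid, for which the authors list a negative control guide sequence. Both groups were grown in the same medium with fetal bovine serum, and the labels call the libraries biological replicates. The labels give 48 h after transfection for every library. The methods describe a longer time and sorted single cells, of which 2 KO colonies were expanded. Which colony each KO library came from is not given in the sources used here. A difference between colonies and an effect of the deletion therefore cannot be told apart, and p-values below measure the spread between these libraries. CNTNAP4 itself had a value in 1 library, VC replicate 3, at a log2 signal of -7.18, so it gives no check of the labels. The values are log2 signals, and the authors' quantile normalization gave all libraries the same median of 0.62 and the same range from -10.87 to 12.04. The read counts behind them are unknown.

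Prostaglandin synthesis starts when cytosolic phospholipase A2, the product of PLA2G4A, frees arachidonate from membrane phospholipids. The cyclooxygenases PTGS1 (COX-1, present in many resting cells) and PTGS2 (COX-2, an early response gene of inflammation and growth factors) turn it into prostaglandin H2, from which terminal synthases make the single prostanoids. PTGES, PTGES2 and PTGES3 have prostaglandin E synthase activity, and PTGIS makes prostacyclin. HPGD oxidises prostaglandin E2 to an inactive form, while PTGER2 and PTGER4 encode the EP2 and EP4 receptors, which raise cAMP. In bone, prostaglandin E2 is known for its action on osteoblasts and osteoclasts.

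The bases just before the start of 4 of these genes are shown because they belong to the pair that rose in KO (PTGS2 and PLA2G4A) and to the other cyclooxygenase and the inducible E synthase, which did not. Each run holds the 250 bases upstream of the RefSeq start on GRCh38.p14, read 5′ to 3′ on the gene's strand, with matches to the searched motifs in capitals.
PTGS2, chr1:186680424-186680673, minus strand: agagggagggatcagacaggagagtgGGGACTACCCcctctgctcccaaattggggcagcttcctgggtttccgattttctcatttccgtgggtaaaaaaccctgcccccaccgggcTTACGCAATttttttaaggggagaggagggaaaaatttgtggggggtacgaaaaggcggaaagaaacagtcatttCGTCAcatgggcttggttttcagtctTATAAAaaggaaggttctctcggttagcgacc
PLA2G4A, chr1:186828699-186828948, plus strand: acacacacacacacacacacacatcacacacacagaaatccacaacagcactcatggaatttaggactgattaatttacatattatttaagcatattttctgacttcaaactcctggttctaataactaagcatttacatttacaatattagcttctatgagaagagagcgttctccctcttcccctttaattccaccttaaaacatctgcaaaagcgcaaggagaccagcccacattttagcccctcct
PTGS1, chr9:122370283-122370532, plus strand: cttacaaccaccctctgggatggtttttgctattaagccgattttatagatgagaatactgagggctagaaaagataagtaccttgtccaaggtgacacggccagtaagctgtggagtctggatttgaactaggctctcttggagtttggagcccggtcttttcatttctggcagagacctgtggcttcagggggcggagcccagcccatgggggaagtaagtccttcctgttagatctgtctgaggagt
PTGES, chr9:129753043-129753292, minus strand: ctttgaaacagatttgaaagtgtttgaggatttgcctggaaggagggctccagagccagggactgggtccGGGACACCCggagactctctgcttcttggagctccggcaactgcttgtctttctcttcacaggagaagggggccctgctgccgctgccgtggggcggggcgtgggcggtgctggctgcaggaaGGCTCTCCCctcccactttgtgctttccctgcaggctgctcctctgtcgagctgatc

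The motifs were TATAAA (the TATA box, searched on the gene's strand) and, on either strand, TGACG (the core of cAMP response elements), TTNNGCAAT (a form of the C/EBP site), GGGNNNNCC (a short, loose form of the NF-kappa-B site), TGANTCA (AP-1) and TGATGNAAT (the composite C/EBP-ATF site). Counting the last base before the start as -1, the PTGS2 window held TATAAA at -32 to -27, TGACG on the reverse strand at -58 to -54, TTACGCAAT at -133 to -125 and overlapping GGGNNNNCC matches from -224 to -215. Of 35116 promoter windows of the same length, 6.80% held TATAAA, 21.2% TGACG, 2.04% TTNNGCAAT and 48.5% GGGNNNNCC. TGANTCA, in 6.57% of windows, and TGATGNAAT, in 0.888%, had no match in the PTGS2 window. The PLA2G4A window and the PTGS1 window shown held none of the 6 motifs, and the PTGES window held GGGNNNNCC alone. Another PTGS1 window, not shown, held GGGNNNNCC on the reverse strand at -172 to -164. Windows were found for 9 of the 10 genes, 13 in all since some have several starts, and TATAAA and TTNNGCAAT matched in that of PTGS2 only. TGACG also matched in windows of PTGES3, PTGER2 and HPGD. GGGNNNNCC also matched in windows of PTGS1, PTGES, PTGES2, PTGES3, HPGD, PTGER2 and PTGER4, so neither motif was particular to PTGS2. These matches are letters in a window and no evidence that a factor binds there.

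PTGS2 and PLA2G4A stood higher in every KO library than in any VC library, whereas PTGS1 did not separate the groups. The log2 signal of PTGS2 was -0.43, -0.24 and -0.49 in VC and 4.49, 5.36 and 4.46 in KO, in the order of replicates 1, 2 and 3 here and below. The means were -0.39 ± 0.13 in VC and 4.77 ± 0.51 in KO (SD, n = 3), and KO minus VC was 5.15 with a standard error of 0.27, a 35.6-fold higher signal. Among the genes of each library, PTGS2 lay at percentiles 42.4 to 44.1 of the signals in VC and 87.9 to 93.6 in KO. In libraries of bulk RNA, more cells that express a gene and more RNA of it per cell cannot be told apart.

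PLA2G4A measured 2.07, 2.05 and 2.01 in VC and 2.98, 3.34 and 3.14 in KO. Its difference of 1.11 (standard error 0.11) corresponds to a 2.16-fold higher signal, and the lowest KO library lay 0.92 above the highest VC library. A larger rise than that of PLA2G4A was seen in 890 of the 19306 genes tested, and a larger rise than that of PTGS2 in 1, IL1B. PTGS1 was near the bottom of the range, with -6.72, -6.66 and -8.11 in VC and -7.15, -5.68 and -8.11 in KO. The groups overlapped, and the difference of 0.19 had a standard error of 0.74.

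PTGS1 and HPGD lay close to the lowest signals that the table can hold for genes of their length. For the 1264 genes with a value in only 1 library and a known transcript length, the log2 signal fell with log2 length at a slope of -0.931 (Pearson r = -0.796, across genes, which are not independent), as it would for a value per length. Against the low end set by these genes, PTGS1 stood 0.03 to 2.46 log2 units higher and HPGD 1.39 to 2.38, while the other 8 genes stood at least 4.11 higher. PTGS1 and HPGD were thus read near the limit of detection, and levels of different genes are compared here as signals per length.

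**Figure D1:**
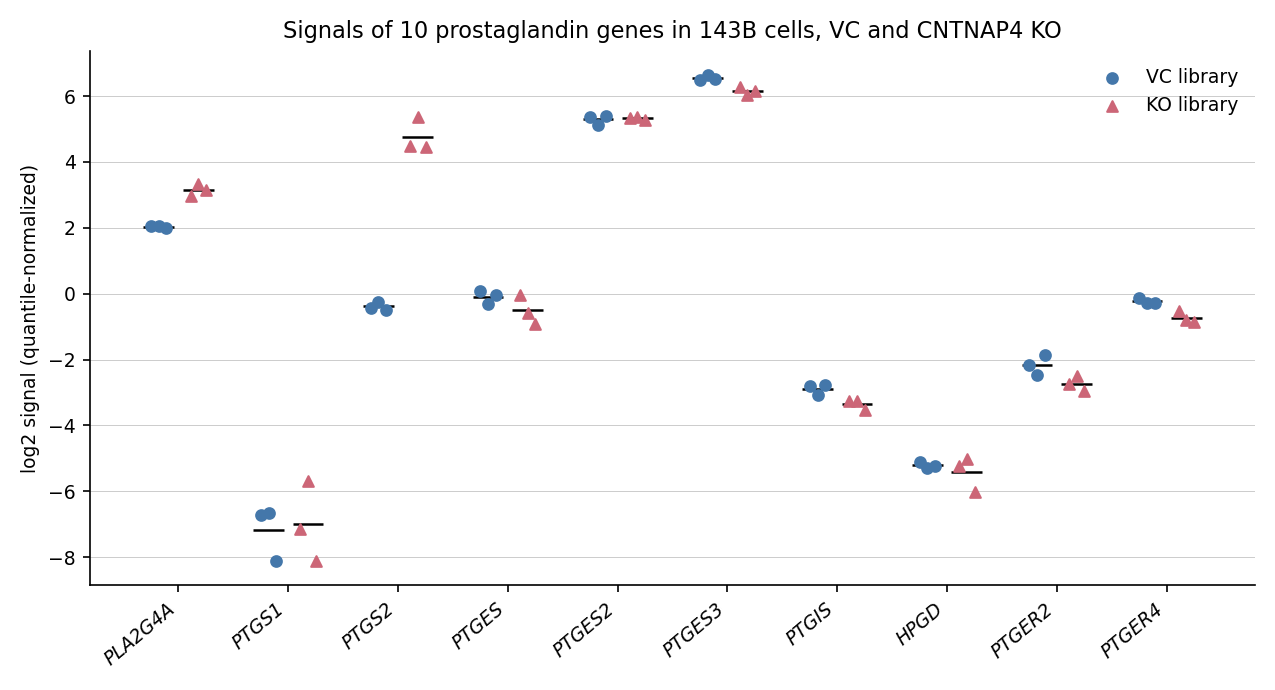
The log2 signal (vertical axis) of each of the 10 genes is plotted for the 3 VC libraries (circles) and the 3 KO libraries (triangles), with a line at each group mean. PTGS2 moved from about the level of PTGES and PTGER4 in VC to just below PTGES2 in KO, and the KO libraries of PLA2G4A also lie above its VC libraries.

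The terminal synthases did not follow PTGS2. PTGES, the inducible microsomal E synthase, gave 0.097, -0.31 and -0.045 in VC and -0.025, -0.58 and -0.91 in KO. The groups overlapped, with a difference of -0.42 (standard error 0.25). PTGES2, another membrane-associated E synthase, was at 5.38, 5.12 and 5.39 in VC and at 5.35, 5.37 and 5.26 in KO, a difference of 0.03 with a standard error of 0.10. PTGES3, the cytosolic E synthase that is also known as the HSP90 co-chaperone p23, measured 6.49, 6.64 and 6.52 in VC and 6.29, 6.05 and 6.15 in KO. It was lower in all KO libraries, by a difference of -0.39 (standard error 0.093).

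PTGIS, which makes prostacyclin, was at -2.79, -3.09 and -2.77 in VC and at -3.25, -3.26 and -3.52 in KO, a difference of -0.46 (standard error 0.13). HPGD, the enzyme that starts prostaglandin breakdown, was at -5.11, -5.29 and -5.22 in VC and at -5.22, -5.03 and -6.01 in KO. KO replicate 3 was the low library for HPGD, and the groups overlapped, with a difference of -0.21 and a standard error of 0.27.

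The receptor genes were lower in all KO than in all VC libraries, by far less than PTGS2 was higher. PTGER4 (EP4) measured -0.13, -0.28 and -0.27 in VC and -0.53, -0.79 and -0.87 in KO, and PTGER2 (EP2) measured -2.17, -2.45 and -1.86 in VC and -2.73, -2.50 and -2.95 in KO. The differences were -0.50 (standard error 0.11) for PTGER4 and -0.57 (standard error 0.20) for PTGER2, the largest decrease of the set. For PTGER2, the nearest libraries were VC replicate 2 and KO replicate 2, which differed by 0.05.

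Of the 10 genes, 2 were higher and 3 lower in KO at a limma adjusted p under 0.05 (PTGS2 and PLA2G4A against PTGES3, PTGIS and PTGER4). Over all 19306 genes tested, that threshold was passed by 32.9%, with 13.1% higher and 19.8% lower. The groups did not overlap in 6 of the 10 genes, 2 higher and 4 lower, beside 59.3% of all genes with 6 values. Since the contrast chose the genes, nothing is read from these counts. Their median difference was -0.30, beside -0.13 for all genes tested. Libraries were also centred on their medians over the genes tested, which need not be equal as those over all values are. With these median-centred libraries, the calls over all genes moved from 2526 higher and 3828 lower to 3141 higher and 3066 lower.

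Since the same contrast chose the genes, the calls in these refits describe the weight of single libraries and are no further support. PTGS2 and PLA2G4A passed the threshold each time 1 of the 6 libraries was left out, with differences of 4.86 to 5.31 and 1.02 to 1.2. KO replicate 2 was the highest KO library for PTGS2, and the lowest of those differences, 4.86, was the one without it. The 3 lower calls were lost together when any of VC replicates 1, 2 and 3 or KO replicates 2 and 3 was left out (0 members called lower). Without KO replicate 1, PTGIS lost its call and PTGES gained one. The sign of the difference changed between these fits for PTGS1, PTGES2 and HPGD.

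**Figure D2:**
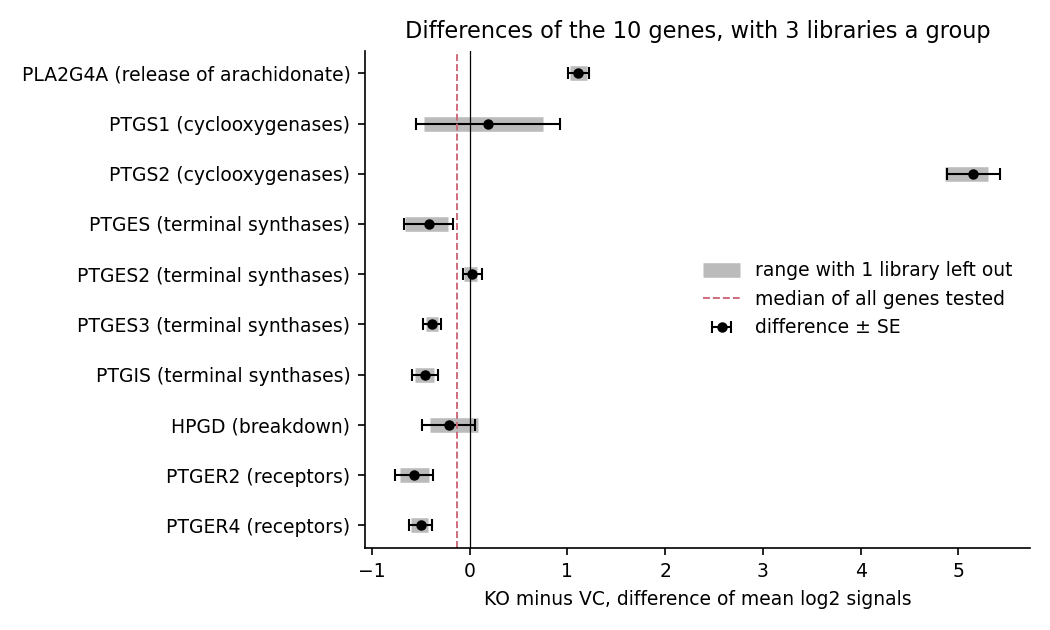
The difference of mean log2 signals, KO minus VC (horizontal axis), is plotted for each gene with its standard error. Grey bars span the values with 1 of the 6 libraries left out, and the dashed line marks the median of all genes tested, -0.13. PTGS2 at 5.15 and PLA2G4A at 1.11 lie far right of the other 8 genes, which lie between -0.57 and 0.19.

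In VC the mean signals per length ran, from the highest, PTGES3, PTGES2, PLA2G4A, PTGES, PTGER4, PTGS2, PTGER2, PTGIS, HPGD and PTGS1. Neighbours in this order had separate ranges, except that PTGES overlapped PTGER4 and PTGER4 overlapped PTGS2. In KO, PTGS2 took the third place behind PTGES2, whose range it overlapped, and the other 9 genes kept the order among themselves. HPGD and PTGS1 also overlapped in KO, as did PTGES and PTGER4. Within single libraries, PTGS2 stood 2.43 ± 0.12 log2 units under PLA2G4A in VC (a difference of -2.43) and 1.62 ± 0.36 above it in KO (SD, n = 3). PTGS2 exceeded PTGS1 by 6.78 ± 0.73 in VC and by 11.7 ± 0.77 in KO. Against PTGES, the E synthase commonly induced along with it, PTGS2 was at -0.30 ± 0.32 in VC and at 5.27 ± 0.72 in KO. PTGER4 exceeded PTGER2 by nearly the same amount in both groups, 1.93 ± 0.31 in VC and 2.0 ± 0.26 in KO. The KO libraries were not alike: KO replicate 2 was the highest of the KO libraries for 6 of the 10 genes, and KO replicate 3 was the lowest for 8.

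The pair that rose is also a pair of neighbours. On GRCh38.p14 PTGS2 spans chr1:186671791-186680423 on the minus strand and PLA2G4A spans chr1:186828949-186988981 on the plus strand, so that their starts face each other across 148.5 kb. The only RefSeq gene between them is PACERR (chr1:186680654-186681446), a noncoding RNA that lies beside the PTGS2 start. PACERR, named after its values were seen, was at -3.11, -3.75 and -2.95 in VC and at -2.03, -2.57 and -5.49 in KO, and the groups overlapped. Beyond PTGS2, the next genes with 6 values were ODR4, with a difference of -0.25 (limma adjusted p = 0.0584), TPR with -0.17 (adjusted p = 0.133) and HMCN1 with 0.27 (adjusted p = 0.0910). None of these passed the threshold, although ODR4 did under 6 alternatives (0.0186 to 0.0493), TPR with 1 added to the linear signal (0.0425) and HMCN1 with median-centred libraries (0.0357) and further quantile normalization (0.0171). No gene with 6 values lay within 500 kb on the far side of PLA2G4A, and the 1812 tested genes of chromosome 1 had a median difference of -0.13.

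**Figure D3:**
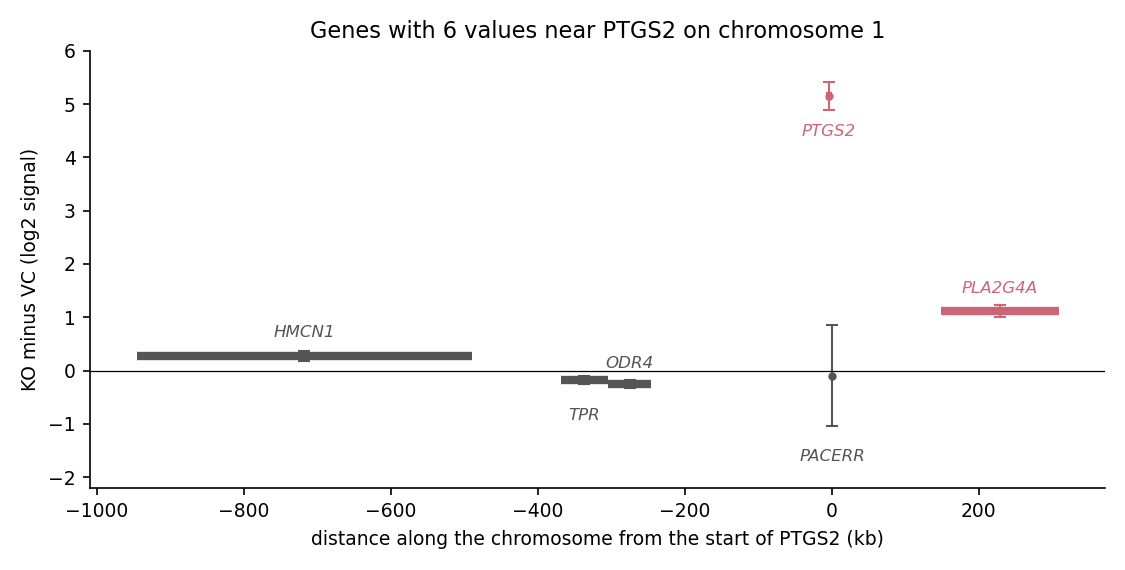
Genes with 6 values around PTGS2 are drawn to scale along the chromosome (horizontal axis, kb from the PTGS2 start) at the height of their difference in log2 signal, KO minus VC, with its standard error. PTGS2 and PLA2G4A are the genes above 1, PACERR has the widest error, and ODR4, TPR and HMCN1 lie between -0.25 and 0.27.

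The other 8 genes lie elsewhere. PTGS1 (chr9:122370533-122395703), PTGES2 (chr9:128120693-128128440) and PTGES (chr9:129738349-129753042) share chromosome 9, whose genes had a median difference of -0.15. PTGES3 is at chr12:56663349-56688284, HPGD at chr4:174490175-174522893 and PTGER4 at chr5:40679915-40746800, each on a chromosome with a median of -0.08. PTGER2 (chr14:52314312-52328598) is on the chromosome with the lowest median of the 23 compared (autosomes and X), -0.39 over 561 genes. PTGIS (chr20:49503874-49568137) is on the one with the third lowest, -0.25 over 491 genes. The part of these chromosome-wide decreases in the lower signals of PTGER2 and PTGIS was not tested.

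Of 12335 genes with 6 values and a mean signal above the median over genes, IL1B, IL1A, DDIT3, MMP10 and GDF15 had the profile most like that of PTGS2. Their profiles, each centred on its VC mean, differed from that of PTGS2 over the 6 libraries by a root mean square of 0.445, 0.513, 0.575, 0.678 and 0.687 log2 units. IL1B, which encodes interleukin-1 beta, was at -1.65, -2.36 and -1.72 in VC and at 3.19, 4.2 and 3.63 in KO. IL1A, for interleukin-1 alpha, was at -0.26, -0.62 and -0.20 in VC and at 3.69, 4.71 and 4.05 in KO. All 5 genes had their highest value in KO replicate 2, as PTGS2 did. DDIT3 encodes the stress transcription factor CHOP, MMP10 a matrix metalloproteinase and GDF15 a stress-induced secreted factor, and they were higher in KO by 4.34 (standard error 0.24), 4.34 (0.38) and 4.29 (0.34). The genes were picked for this pattern, so it is a description.

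**Figure D4:**
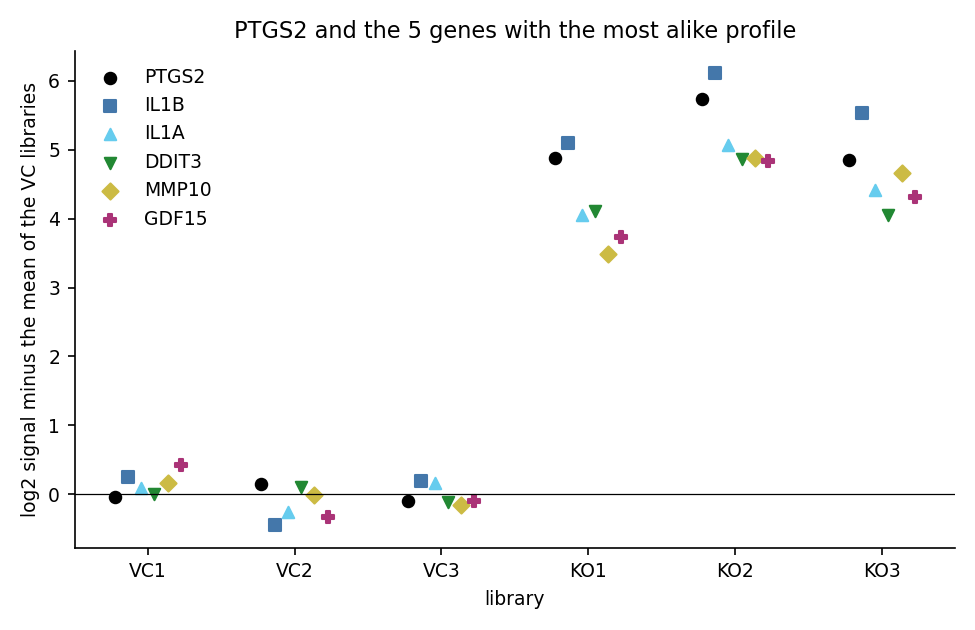
Log2 signals of PTGS2 and 5 other genes are plotted by library after subtraction of each gene's VC mean (vertical axis). In the VC libraries all 6 genes stay between -0.45 and 0.42, and in the KO libraries they lie between 3.49 and 6.11, highest in KO replicate 2 for each gene.

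Around the 10 genes, 8 lists hold 146 other genes of the pathway, of which 133 had a value and 113 could be tested. At a limma adjusted p under 0.05, 22 were higher and 21 lower in KO, and 70 did not pass, which makes 38.1% called, beside the 32.9% of all genes tested (13.1% higher and 19.8% lower). Their median difference was -0.03, beside -0.13 for all genes. The counts moved with single libraries. Without VC replicates 1, 2 and 3 there were 11, 10 and 6 higher and 2, 7 and 2 lower. Without KO replicate 1 there were 22 higher and 34 lower, without KO replicate 2 16 and 15, and without KO replicate 3 13 and 4. Of 52 called single genes, markers and related symbols included, 10 passed in every such fit. Of the genes named below, ZFP36L1 and PTGR3 passed in 2 of the 6 fits, and PLA2G4C, PLA2G6, LTB4R and PRKAR1B in 3.

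Among phospholipases and genes of arachidonate handling, 3 of 15 tested rose and 4 fell. PLA2G4C, a calcium-independent relative of PLA2G4A, rose from -3.14, -3.77 and -4.06 in VC to -2.31, -1.62 and -1.70 in KO, by 1.78 (standard error 0.31, limma adjusted p = 0.0160). PLA2G6, another calcium-independent phospholipase A2, rose by 0.89 (adjusted p = 0.0195). PLA2G7, which cleaves platelet-activating factor, rose by 0.78 (adjusted p = 0.0158). LPCAT2 and LPCAT3, which put acyl chains back into phospholipids, were among the 4 that fell, with DAGLB and PLA2G15, and LPCAT3 lost its call with median-centred libraries (limma adjusted p = 0.109).

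Of the other synthases and converting enzymes, 2 of 12 rose and 2 fell. AKR1C1 rose by 2.21 (standard error 0.41, limma adjusted p = 0.0183) from a low signal, -5.66, -6.83 and -6.23 in VC against -4.56, -3.45 and -4.07 in KO. AKR1C3, an aldo-keto reductase that makes prostaglandin F2 alpha, rose from 0.08 to 0.15 in VC to 0.48 to 0.62 in KO (difference 0.44, adjusted p = 0.0146). AKR1C1 and AKR1C3 have close paralogs, so reads shared between them make their split uncertain. PRXL2B, a prostamide and prostaglandin F synthase, fell by 0.75 (adjusted p = 0.0491), and PTGR3, a prostaglandin reductase listed under its older symbol ZADH2, fell by 0.50 (adjusted p = 0.0278). The call of AKR1C1 was lost with 1 added to the linear signal (difference 0.07, limma adjusted p = 0.0735), and that of PRXL2B with median-centred libraries (0.0570), further quantile normalization (0.0501) and no moderation (0.0890).

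The other 8 enzymes tested did not pass in this fit. TBXAS1, thromboxane synthase, had a difference of 0.35 (limma adjusted p = 0.0591), with no overlap of the groups. PTGR1 (0.27, adjusted p = 0.0609), PTGR2 (0.19, adjusted p = 0.113) and GSTM2 (-0.68, adjusted p = 0.0646) also missed the threshold, as did AKR1B1 (0.09), CBR1 (-0.13), CBR3 (0.01) and GSTM3 (-0.08). Of these, TBXAS1 passed with median-centred libraries (limma adjusted p = 0.0251), further quantile normalization (0.0176) and 1 added to the linear signal (0.0385), and PTGR1 passed under 6 alternatives (0.0194 to 0.0477). PTGR2 passed in the upper 50% of genes (0.0489) and with 1 added (0.0421), and GSTM2 without KO replicate 1 (0.0188).

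The list of other prostanoid receptors, which also holds PTGFRN and the nuclear receptors PPARG and PPARD, gave no call, 0 of 7 tested. The E receptor genes PTGER1 and PTGER3 had 3 values each, those of PTGER3 in KO only, and could not be tested. By the same limma test, 0 of the 7 had an unadjusted p under 0.05, beside 9241 of all 19306 genes tested. PTGFRN, which binds the F receptor and is the most abundant of them, was at 4.81 to 4.82 in VC and 4.77 to 4.99 in KO. PTGFR (0.15), PTGIR (0.60), TBXA2R (-0.36) and PTGDR2 (1.0, with 5 values) had standard errors of 0.25, 0.36, 0.22 and 0.87 at signals of -2.01 or lower. The nuclear receptors PPARG and PPARD had differences of -0.05 and -0.19. Of the prostanoid transporters, 2 of 3 tested fell and 0 rose, and at an unadjusted limma p under 0.05 all 3 were lower and 0 higher. SLCO2A1, the prostaglandin uptake carrier, fell by 0.79 (standard error 0.22, adjusted p = 0.0430), and the exporter ABCC4 fell by 0.28 (adjusted p = 0.0464). Neither passed with libraries centred on their medians (limma adjusted p = 0.0510 and 0.103) or after a further quantile normalization (0.0518 and 0.0616), so 0 of 3 fell under either scaling.

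In the lipoxygenase and leukotriene branch, which shares arachidonate with the cyclooxygenases, 2 of 12 rose and 2 fell. ALOX5, 5-lipoxygenase, was at -4.15, -4.49 and -3.59 in VC and at -5.49 and -5.80 in KO, where replicate 2 had no value, and fell by 1.57 (standard error 0.31, limma adjusted p = 0.0274). At this low signal the call was lost with 1 added to the linear signal (-0.06, adjusted p = 0.173), with empty cells set to 0 as well (-0.07, 0.0839) and without variance moderation (0.0678). LTB4R, a leukotriene B4 receptor, fell by 0.75 (adjusted p = 0.0139), and ALOX12B, an epidermal lipoxygenase, rose by 0.84 (adjusted p = 0.0190).

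Downstream of EP2 and EP4, 4 of 33 cAMP signalling genes rose and 6 fell, with a median difference of -0.07. PDE4D, a cAMP phosphodiesterase, rose by 1.03 (standard error 0.17, limma adjusted p = 0.0148). PRKAR1B, a regulatory subunit of protein kinase A, fell by 1.34 (adjusted p = 0.0160), and the adenylyl cyclase ADCY1 fell by 0.91 (adjusted p = 0.0388). GNAS, which encodes the stimulatory G protein of these receptors, was among the genes that fell, and PDE4B among those that rose. With median-centred libraries GNAS missed the threshold (limma adjusted p = 0.0509), and without moderation ADCY1 did (0.0755).

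Of 19 genes listed as transcription factors known to act on the PTGS2 promoter, 9 rose, 0 fell and 10 did not pass, with a median difference of 0.30. Over all genes tested, 13.1% rose and 19.8% fell, with a median of -0.13. At an unadjusted limma p under 0.05 the counts were 10 higher and 1 lower, beside 9241 of all 19306 genes in either direction. The 9 were EGR1, CEBPB, FOS, JUN, CEBPD, TCF4, NFKB1, ATF2 and RELA. TCF4 was listed by symbol, which names a basic helix-loop-helix factor. TCF7L2, the beta-catenin partner also called TCF-4, is a separate gene and did not pass (-0.03, limma adjusted p = 0.800). The place of TCF4 among the 9 and in the list's median is therefore uncertain. EGR1, an immediate early zinc finger factor, went from 2.86, 2.86 and 2.93 in VC to 4.88, 5.38 and 4.53 in KO, a rise of 2.04 (standard error 0.22, limma adjusted p = 0.00874). CEBPB, a C/EBP factor, went from 4.67, 4.42 and 4.61 to 6.12, 6.68 and 6.05, a rise of 1.71 (standard error 0.19, adjusted p = 0.00912). FOS, an AP-1 subunit, rose by 0.72 (adjusted p = 0.0449). EGR1 and CEBPB, like PTGS2, were highest in KO replicate 2. Both passed in all 6 fits that left out a library, as did JUN and TCF4. FOS, RELA and CEBPD passed in only 1 such fit, and NFKB1 and ATF2 in 2. Calls were also more frequent in a separate fit of the upper 50% of genes by mean signal. There 59.1% of 9653 were called, 2263 higher and 3439 lower. That fit had its own variance moderation and p adjustment, so signal level and the change of fit cannot be told apart. Without moderation FOS and CEBPD missed the threshold (limma adjusted p = 0.0822 and 0.0593).

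The last list holds RNA-binding proteins and nucleases that act on unstable messages such as that of PTGS2, of which 2 of 14 rose and 5 fell. ZC3H12A, an RNase induced in inflammation, rose from 0.84, 0.57 and 0.83 to 2.14, 2.14 and 1.66 (difference 1.23, limma adjusted p = 0.0112). DICER1, which cuts microRNA precursors and does not itself bind AU-rich elements as its list's name says, fell by 0.96 (adjusted p = 0.0106). ZFP36L1, which promotes decay at AU-rich elements, rose by 0.76 (adjusted p = 0.0196), while ELAVL1, which stabilises such messages, ZFP36L2, HNRNPD and CELF2 were the others that fell. ELAVL1 lost its call with median-centred libraries (limma adjusted p = 0.0638) and CELF2 after further quantile normalization (0.0665), and ZFP36L2 and HNRNPD lost theirs without moderation (0.0537 and 0.0665).

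**Figure D5:**
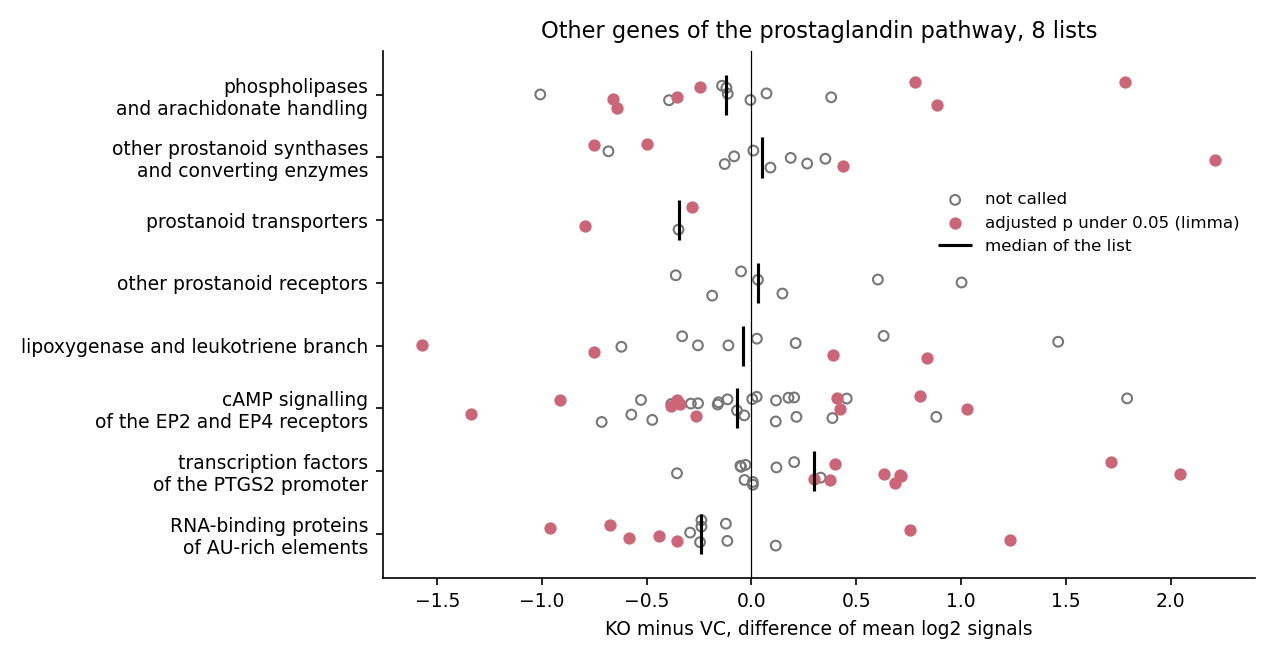
Each point is a gene of 1 of the 8 lists, placed by its difference in mean log2 signal, KO minus VC (horizontal axis). Filled points passed a limma adjusted p of 0.05, open points did not, and vertical lines mark list medians. All 9 filled points of the transcription factor list lie right of 0, and the list of other prostanoid receptors has no filled point.

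Markers of cell types were read beside these results. Of 10 markers of the osteoblast lineage, IBSP had no value in any library, BGLAP had 2 values, in KO, and SP7 had 4, at -6.52 or lower, while VIM (10.3 to 10.9), SPARC (6.46 to 6.95) and RUNX2 (1.30 to 1.69) were present in all 6. Of the 8 tested, 4 rose and 1 fell, beside 13.1% higher and 19.8% lower over all genes tested. SPP1, for osteopontin, rose by 1.55 (limma adjusted p = 0.00963), ALPL by 0.58, SPARC by 0.37 and COL1A1 by 0.33, while COL1A2 fell by 0.81 at a low signal, a call that was lost with 1 added to the linear signal (-0.02, adjusted p = 0.388). The part of these changes in those of the 10 genes was not tested. Among the leukocyte markers, TYROBP had 1 value and PTPRC lay between -7.12 and -4.35. The summed linear signal of the leukocyte list was 22.1 to 23.1 in VC and 52.4 to 88.2 in KO. Nearly all of it came from CD68, a lysosomal protein, which rose by 1.66 (standard error 0.20, limma adjusted p = 0.00963) and was the only 1 of 4 tested to pass. The others tested had lower means in KO with overlapping groups, PTPRC by -1.18, LYZ by -1.08 and FCER1G by -0.50. The median difference of the list was -0.79. CD14 and CD3E had 4 values each, too few in KO to test, with the lowest in KO. The endothelial list summed to at most 0.109 in any library, with 0 of 4 passing by limma, before or after adjustment. Before adjustment, 9241 of all 19306 genes had a limma p under 0.05. The epithelial list summed to 577 to 640 in VC and 553 to 609 in KO, with KRT18 at 8.63 to 9.06 and KRT8 at 6.49 to 7.27. Of the 5 epithelial markers tested, KRT8 rose by 0.59 and EPCAM fell by 0.67 (limma adjusted p = 0.0135 and 0.0157). ESRP1, with 5 values, had a difference of 3.23 and did not pass (adjusted p = 0.0854), nor did KRT18 and KRT19. The part of the CD68 rise in that of PTGS2 was not tested.

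Genes whose symbols extend those of the 10 could share reads with them. There were 12, of which 8, all pseudogenes, had no value. PTGES2-AS1, antisense to PTGES2, had a difference of -0.96 (limma adjusted p = 0.106), and whether its reads were counted by strand is not given in the sources used here. The groups of the symbol PTGER4P2-CDK2AP2P2, which joins a PTGER4 pseudogene to another, did not overlap, and it fell by 1.09 (limma adjusted p = 0.0149). PTGES3L and PTGES3L-AARSD1 had 4 and 5 values, between -5.02 and -2.34. How reads common to PTGES3 and its pseudogenes were assigned is not given in the sources used here, so the level of PTGES3 is uncertain to that extent.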

How the data were processed

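RNA of 143B cells was extracted with TRIzol and sequenced by the authors on an Illumina NextSeq 500, from TruSeq Stranded mRNA libraries per the labels. The methods name CLC Genomics Workbench with its Server, and Partek Genomics Suite, and the submitters' processing notes list CASAVA, STAR, Partek and GRCh38.p13. The deposited values are log2 signals per gene symbol, quantile-normalized between the 6 libraries, with empty cells for some genes. Their linear unit, the annotation and the read counts are not given in the sources used here, so no counting interval could be computed. The labels give 48 h after transfection, and the methods a longer time with cell sorting.

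Groups came from the labels. Signals were compared in R 4.3.3 with limma 3.58.1, empirical Bayes moderation without trend, on 19306 genes (2 values or more per group), with two-sided p-values adjusted by Benjamini-Hochberg and called under 0.05. The 2-value rule, the members and all lists were chosen with earlier results of these data known. Standard errors are those of the fit. Values were tabulated in Python 3.11.15 with pandas 2.3.3 and numpy 2.4.6. The fit was tested on simulated data. Named genes were the 10 members, up to 3 called genes with the largest difference in each pathway list, other prostanoid receptors and synthases with at least 4 values, the 5 genes most like PTGS2, symbols extending a member's, and CNTNAP4. Genes named outside it (PACERR, neighbours, markers and further called list members) were chosen after their values were seen. Positions and promoters are from RefSeq on GRCh38.p14, and transcript lengths from GENCODE 29. The promoter table held no entry for PTGIS. Alternatives were another gene filter, scaling, pseudocount or moderation, a replicate block, a 2-fold threshold and leaving out each library.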

Additional observations from a re-analysis of the deposited data

How the results depend on the processing

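PTGS2 and PLA2G4A were called higher under every alternative run (2 members higher each time), at 4.0 and 0.95 with 1 added to the linear signal. The contrast chose these genes, so such calls describe the processing and are no further support. The 3 lower calls were less stable. With the upper 50% of genes, median-centred libraries or no variance moderation 1 member was called lower, and with a replicate block or a 2-fold requirement 0. With single libraries left out the number was 0 to 3. The median difference of the members was 0.57 in the upper 50% of genes, which keeps only 4 of the 10 and so turns the sign, -0.026 with 1 added to the linear signal, with or without empty cells at 0, and -0.39 to -0.078 with single libraries left out. Adding 1 also moved the median of all genes from -0.13 to -0.02. Of the other pathway genes, the 22 higher calls became 5 with the replicate block, 6 with the 2-fold requirement and 6 to 22 with single libraries left out. The 21 lower calls became 13 with median-centred libraries, 13 without moderation, 4 with the block, 2 with the 2-fold requirement and 2 to 34 with single libraries left out. The cause was not tested. No pairing by replicate number was seen, as the deviations of same-numbered VC and KO libraries correlated at 0.0226, 0.00509 and -0.00736 over 17698 genes. These correlations cannot show whether same-numbered libraries were processed together. The block reduced the calls over all genes from 6354 to 1533, and the range with libraries left out was 1223 to 8669. For 73 other single genes (pathway genes, markers, neighbours and related symbols), 230 values under alternatives lost the call, 24 gained one and 806 kept their side, and 10 of 52 called genes passed with each library left out. Read depth is unknown, which limits PTGS1 and HPGD most.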
